A study of Mus musculus with 22 samples.

Results

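The expression of 10 marker genes of macrophages and other leukocytes was examined in RNA of isolated pancreatic islets: Cd68, Adgre1, Csf1r, Ptprc, Lyz2, Cd14, Itgam, Tyrobp, Fcer1g and Aif1. They were found by gene symbol, and all 10 were among the 57010 genes of the expression table. The 22 samples were islets of single male mice, covering each combination of genotype and background. The mice were wild type for MafA (WT) or heterozygous for the S64F change in this beta cell transcription factor (Het), on a background named C57 or one named Mixed. The C57 groups held 5 WT and 6 Het mice, and the Mixed groups likewise 5 WT and 6 Het mice. The age is 5.5 weeks in the series text, while the column names of the table give 5 to 6 weeks. Which strains make up Mixed is not given in the sources used here. The library numbers follow the groups in sequence, so library order and group cannot be told apart. Values are TPM, a transcript abundance that is scaled by gene length and sums to the same total in every library.

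Islets hold a resident population of macrophages that live beside the endocrine cells and the blood vessels, take up material released by beta cells and present antigen. Their growth and survival depend on the receptor encoded by Csf1r, and the lineage factor PU.1 (Spi1) drives Csf1r and many other myeloid genes. Several activating receptors of myeloid cells have no signalling tail of their own and signal through small adaptors with an ITAM motif, DAP12 (Tyrobp) and the Fc receptor gamma chain (Fcer1g). In bulk islet RNA, fewer cells of a type and less RNA per cell cannot be told apart.

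Per sample, 14812 to 16133 genes were at 1 TPM or above, and library depth is unknown because TPM keeps none. Mafa, which the altered allele still encodes, averaged 441 TPM in WT and 117 in Het mice on C57, and 598 and 152 on Mixed. Its level is no read of the S64F change itself. Insulin transcripts took a mean of 39.3%, 31.6%, 39.9% and 27.4% of the TPM total in those groups, and glucagon 3.53%, 8.51%, 1.90% and 8.52%. Mitochondrial transcripts took 4.27% to 9.76% in C57 WT and 3.86% to 4.39% in C57 Het mice, and 4.37% to 9.76% in Mixed WT and 2.80% to 4.06% in Mixed Het mice. The share was thus lower in Het mice on average, with no overlap on Mixed, and its part in the genotype results was not tested. Since TPM divides by the total, 2 other scalings were run, and a marker's value under them is given where its call changed.

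The label of the set was checked against the levels of its members. Of the 10 genes, 8 were at 1 TPM or more in every one of the 22 mice. These 8 passed the filter for testing, which asked for 1 TPM or more in 5 or more samples and left 16756 genes. Ptprc (ENSMUSG00000026395), which encodes the pan-leukocyte phosphatase CD45, lay between 0.273 and 1.05 TPM and reached 1 in 1 sample. Itgam (ENSMUSG00000030786), which encodes the CD11b chain of complement receptor 3 on monocytes, neutrophils and many macrophages, never exceeded 0.152 TPM and was listed at 0 in 3 samples. Ptprc and Itgam were therefore not in the test across genes, and their values come from a fit without the filter.

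On the TPM scale, Cd68 and Fcer1g led the C57 WT levels, with means of 18.6 ± 6.86 and 14.6 ± 0.752 (SD, n = 5). Tyrobp (9.45 ± 1.19) and Lyz2 (6.64 ± 1.71) came next, and then Csf1r, Cd14, Aif1 and Adgre1 between 3.75 and 2.19. The ranges of neighbours in that order overlapped except between Fcer1g and Tyrobp, between Adgre1 and Ptprc, and between Ptprc and Itgam. Mixed Het mice had another order, with Lyz2 first at 24.7 ± 10.4 (SD, n = 6) and Cd68 next at 20.5 ± 3.04. The ranges of those 2 genes overlapped, and both had a mean above that of Fcer1g at 12.8 ± 2.49. Ptprc and Itgam were the lowest of the 10 in every group.

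**Figure D1:**
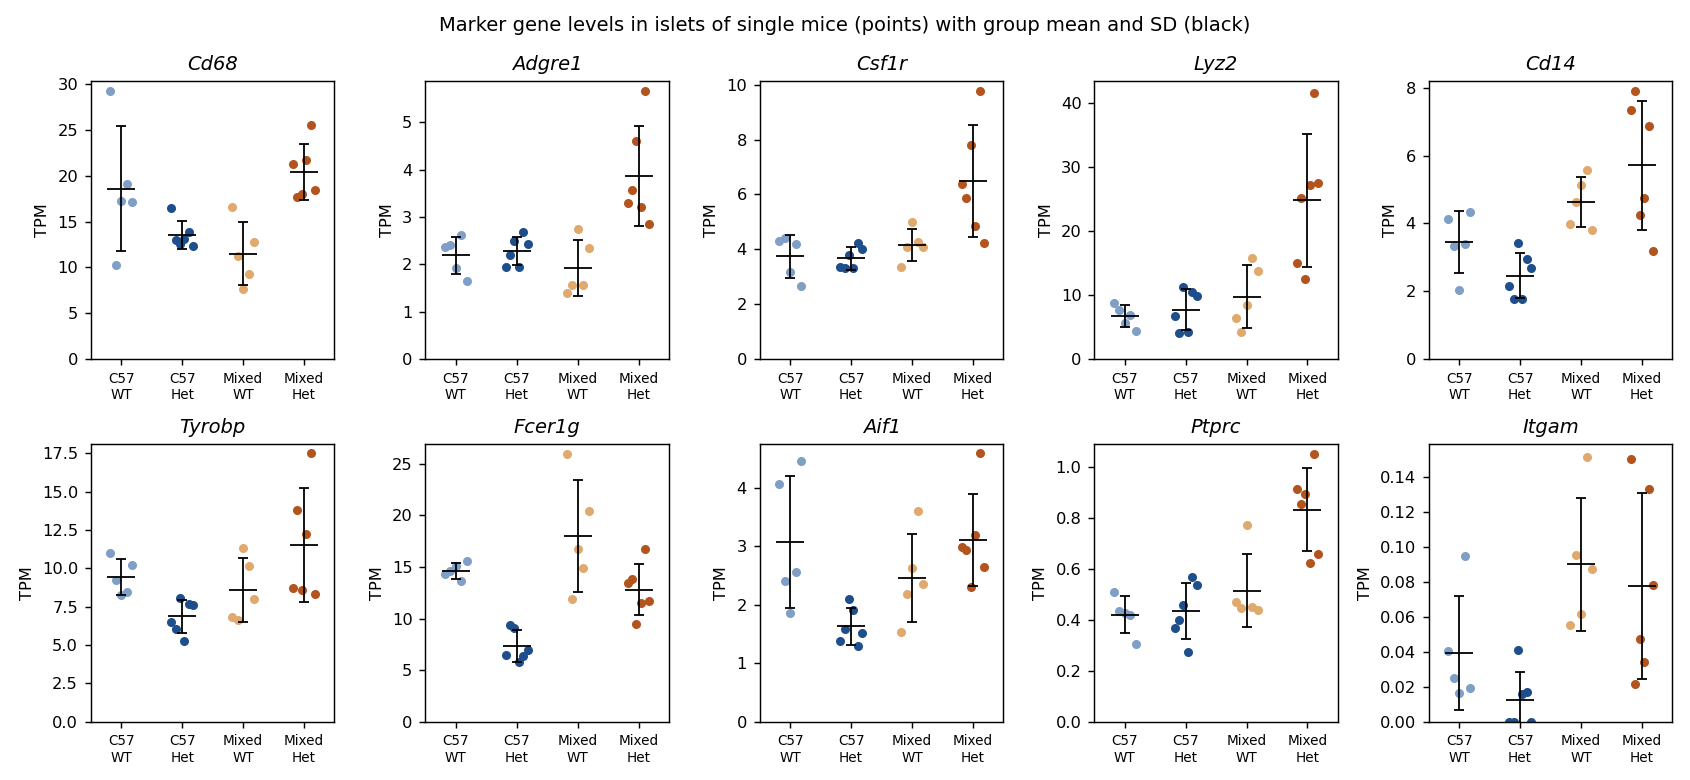
TPM of each of the 10 marker genes in every mouse, by group (points are mice, black bars the group mean and SD; each panel has its own vertical axis). On the Mixed background the Het mice sit above the WT mice for Cd68 and Adgre1, while for Fcer1g on C57 every Het mouse sits below every WT mouse.

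The effect of the S64F genotype on the Mixed background was read from 6 Het against 5 WT mice. Cd68, Adgre1, Csf1r and Lyz2 rose and Fcer1g fell, so 5 of the 8 tested genes changed. Of all 16756 genes, 44.1% were called in this comparison by limma (adjusted p under 0.05), 30.7% higher and 13.5% lower, beside 4 higher and 1 lower of the 8 markers. The median log2 difference was 0.43 for the 8 markers and 0.10 for all genes. Median-of-ratios scaling moved that all-gene median to -0.01 and the split of calls from 5137 higher and 2258 lower to 3569 higher and 3761 lower. The 4 genes that rose passed the test under both other scalings, at 0.68 for Cd68, 0.63 for Adgre1, 0.39 for Csf1r and 1.16 for Lyz2 on the log2 scale after median-of-ratios scaling.

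Adgre1 (ENSMUSG00000004730) encodes F4/80, an adhesion receptor by which mouse tissue macrophages are commonly recognised. It stood at 1.39, 1.56, 2.75, 1.56 and 2.34 TPM in the 5 Mixed WT mice and at 2.85, 3.44 and 5.65 (lowest, median and highest) in the 6 Het mice. The groups did not overlap, as held for 17.9% of all genes in the higher direction. The Het mean was 2.01-fold the WT mean, a log2 difference of 0.73 (SE 0.14, limma adjusted p = 0.000297; two-sided exact permutation p = 0.00216, the smallest that 5 against 6 mice allow). Csf1r (ENSMUSG00000024621), the receptor for colony-stimulating factor 1 and interleukin 34, stood at 3.35, 4.08, 5.002, 4.26 and 4.09 TPM in the WT mice and at 4.24, 6.12 and 9.78 in the Het mice. Of the 6 Het mice, 4 were above every WT mouse. The Het mean was 1.56-fold the WT mean and the log2 difference 0.50 (SE 0.15, limma adjusted p = 0.00986; exact permutation p = 0.026).

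Ptprc followed at a low level, with 0.468, 0.444, 0.771, 0.452 and 0.438 TPM in the Mixed WT mice and 0.624, 0.873 and 1.05 in the Het mice. The groups overlapped through WT replicate 3 alone, which stood apart from its group. In the fit without a filter the log2(TPM + 1) difference was 0.27 (SE 0.07, limma adjusted p = 0.0108; exact permutation p = 0.013). At levels this far under 1 TPM the added 1 compresses the difference.

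Cd68 (ENSMUSG00000018774) encodes macrosialin, a glycoprotein of late endosomes and lysosomes in phagocytes, and Lyz2 (ENSMUSG00000069516) encodes the lysozyme that myeloid cells secrete and store. Both rose in Mixed Het islets, and the 250 bases before their start sites are shown to compare them with genes that fell. The windows are from RefSeq on GRCm38.p6, Cd68 at chr11:69666171-69666420 and Lyz2 at chr10:117282273-117282522, both on the minus strand. Capitals mark GAGGAA, the core of the PU.1 recognition sequence, searched on both strands (TTCCTC on the other).
Cd68: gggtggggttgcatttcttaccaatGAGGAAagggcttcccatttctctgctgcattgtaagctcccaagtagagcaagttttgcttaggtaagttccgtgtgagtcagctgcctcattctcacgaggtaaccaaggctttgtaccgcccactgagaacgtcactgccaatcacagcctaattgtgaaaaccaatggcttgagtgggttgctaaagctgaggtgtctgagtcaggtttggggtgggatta
Lyz2: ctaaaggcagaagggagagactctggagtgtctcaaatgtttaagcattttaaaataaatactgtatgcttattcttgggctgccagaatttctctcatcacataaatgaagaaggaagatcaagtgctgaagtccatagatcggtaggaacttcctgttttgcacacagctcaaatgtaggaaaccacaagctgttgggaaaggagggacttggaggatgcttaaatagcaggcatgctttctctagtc
The Cd68 window held 1 match, which begins 225 bases before the start, and the Lyz2 window held none. A match is a description of these letters only, and 23.3% of the 32851 windows of that length in the table hold one.

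Cd68 stood at 16.6, 11.3, 7.64, 9.24 and 12.8 TPM in the 5 Mixed WT mice and at 17.6, 19.9 and 25.6 in the 6 Het mice. Every Het mouse was above every WT mouse. The Het mean was 1.78-fold the WT mean and the log2 difference 0.81 (SE 0.19, limma adjusted p = 0.00142; exact permutation p = 0.00216). Lyz2 stood at 6.43, 4.29, 8.48, 15.8 and 13.7 TPM in the WT mice and at 12.5, 26.1 and 41.5 in the Het mice. It had the largest change of the 8 markers and also a wide spread, with 4 of 6 Het mice above every WT mouse. The Het mean was 2.54-fold the WT mean and the log2 difference 1.29 (SE 0.32, limma adjusted p = 0.00264; exact permutation p = 0.0195).

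Fcer1g (ENSMUSG00000058715) went the other way on the Mixed background. It stood at 25.9, 11.9, 16.8, 14.9 and 20.4 TPM in the WT mice and at 9.51, 12.6 and 16.8 in the Het mice, and the groups overlapped. The Het mean was 71.2% of the WT mean and the log2 difference -0.43 (SE 0.16, limma adjusted p = 0.0292; exact permutation p = 0.0606). That call was lost without a filter (adjusted p = 0.0589), in a fit on the Mixed mice alone (adjusted p = 0.0686) and without Mixed WT replicate 1 (0.111) or 5 (0.0723) or Mixed Het replicate 3 (0.0714), 4 (0.0539) or 6 (0.0534).

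The remaining tested genes did not pass on the Mixed background. Tyrobp (ENSMUSG00000030579) stood at 6.85, 6.65, 11.4, 10.1 and 8.002 TPM in WT and 8.33, 10.5 and 17.5 in Het mice, a log2 difference of 0.36 (SE 0.17, limma adjusted p = 0.0837). It passed without Mixed WT replicate 3 (0.0391), Mixed Het replicate 3 (0.0477) or Mixed Het replicate 6 (0.0445). For Cd14 (ENSMUSG00000051439), the co-receptor that hands lipopolysaccharide to Toll-like receptor 4, WT mice had 3.99, 4.64, 5.14, 5.58 and 3.82 TPM and Het mice 3.18, 5.81 and 7.89. The difference was 0.21 (SE 0.19, limma adjusted p = 0.379). Aif1 (ENSMUSG00000024397), which encodes the actin-binding protein Iba1 of macrophages and microglia, stood at 1.53, 2.19, 2.64, 3.603 and 2.36 TPM in WT and 2.31, 2.96 and 4.59 in Het mice. Its difference was 0.26 (SE 0.17, limma adjusted p = 0.232). Itgam lay between 0.0219 and 0.152 TPM in all 11 Mixed mice, with a log2(TPM + 1) difference of -0.02 in the fit without a filter (limma adjusted p = 0.76).

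The genotype effect on the C57 background was read from 6 Het against 5 WT mice that the Mixed comparison does not use. Fcer1g and Aif1 fell and none of the 8 tested markers rose. Over all genes 38% were called, 26.4% higher and 11.6% lower, so the 2 of 8 that fell stand beside a background of 11.6% and the 0 of 8 that rose beside 26.4%. The median log2 difference was -0.36 for the 8 markers and 0.08 for all genes. Scaling by median-of-ratios changed the split of all calls from 4422 higher and 1940 lower to 3512 higher and 3076 lower. Under it 4 markers fell, Cd68 (adjusted p = 0.0376) and Tyrobp (0.0385) being added, and the same 2 were added when the 13 most abundant genes were left out of the total (0.0454 and 0.0253).

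Fcer1g and Aif1, the genes that fell on C57, have RefSeq windows at chr1:171234350-171234599 and chr17:35176053-35176302 on GRCm38.p6, both on the minus strand. They are given for comparison with Cd68 and Lyz2, again with GAGGAA or TTCCTC in capitals.
Fcer1g: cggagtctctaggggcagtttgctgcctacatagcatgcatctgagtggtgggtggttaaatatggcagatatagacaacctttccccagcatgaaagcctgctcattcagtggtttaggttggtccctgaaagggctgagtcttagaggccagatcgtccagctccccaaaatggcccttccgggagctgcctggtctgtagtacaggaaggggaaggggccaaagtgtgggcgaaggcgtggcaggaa
Aif1: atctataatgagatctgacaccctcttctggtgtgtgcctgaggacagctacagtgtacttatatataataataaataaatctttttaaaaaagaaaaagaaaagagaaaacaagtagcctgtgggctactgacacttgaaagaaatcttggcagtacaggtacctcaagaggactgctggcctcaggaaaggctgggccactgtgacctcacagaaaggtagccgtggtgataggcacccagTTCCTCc
The Aif1 window held 1 match, which begins 7 bases before the start, and the Fcer1g window held none. Both pairs thus had 1 gene with these letters and 1 without. In all, 6 of the 10 markers had a window in the table, and 4 of those 6 genes held the motif, beside 25.9% of 27025 genes.

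Fcer1g had closely spaced WT values, at 14.3, 14.6, 15.1, 13.6 and 15.6 TPM in the 5 C57 WT mice. In the 6 C57 Het mice it stood at 5.77, 6.72 and 9.36, below every WT mouse. In the lower direction 5.04% of all genes had groups that did not overlap. The Het mean was 50.2% of the WT mean and the log2 difference -0.92 (SE 0.16, limma adjusted p = 0.000139; exact permutation p = 0.00216). Aif1 stood at 4.07, 2.41, 1.87, 2.56 and 4.46 TPM in the WT mice and at 1.30, 1.55 and 2.10 in the Het mice, 4 of which were below every WT mouse. Its mean was 53.1% of the WT mean, with a log2 difference of -0.59 (SE 0.17, limma adjusted p = 0.00883; exact permutation p = 0.00649). Fcer1g and Aif1 were both called in each of the 11 fits that left out 1 C57 mouse.

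The partner adaptor Tyrobp lay close to the threshold on C57. Its values were 11.03, 9.25, 8.26, 8.44 and 10.2 TPM in WT and 5.28, 7.07 and 8.08 in Het mice, and the groups did not overlap. The log2 difference was -0.41 (SE 0.17, limma adjusted p = 0.0559; exact permutation p = 0.00433, unadjusted). A fit on the C57 mice alone gave an adjusted p of 0.0156 and leaving out C57 Het replicate 3 gave 0.0458.

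The other C57 differences did not pass the test. Cd68 stood at 29.3, 10.2, 17.3, 19.1 and 17.1 TPM in WT and 12.3, 13.03 and 16.5 in Het mice, a log2 difference of -0.37 (SE 0.19, limma adjusted p = 0.128). It passed without WT replicate 2, the lowest WT mouse (adjusted p = 0.0129). Cd14 stood at 4.13, 3.34, 2.03, 3.39 and 4.34 TPM in WT and 1.76, 2.42 and 3.43 in Het mice, a difference of -0.36 (SE 0.19, limma adjusted p = 0.137). It passed without WT replicate 3, again the lowest WT mouse (adjusted p = 0.044).

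Adgre1, Csf1r, Lyz2 and Ptprc had C57 means close together. Adgre1 stood at 2.37, 2.41, 1.92, 2.61 and 1.64 TPM in WT and 1.94, 2.31 and 2.68 in Het mice, a log2 difference of 0.04 (SE 0.14, limma adjusted p = 0.832) that turned to -0.02 and -0.03 under the other scalings. Csf1r stood at 4.30, 4.43, 3.18, 4.18 and 2.66 TPM in WT and 3.30, 3.57 and 4.23 in Het mice, a difference of -0.01 (SE 0.15, adjusted p = 0.958). A p above the threshold does not show that the groups of either gene had the same level. Lyz2 was less precise, at 8.70, 7.72, 5.57, 6.82 and 4.37 TPM in WT and 3.98, 8.20 and 11.2 in Het mice, with a difference of 0.13 (SE 0.32, adjusted p = 0.783). Ptprc averaged 0.419 ± 0.0724 TPM (SD, n = 5) in WT and 0.434 ± 0.110 (SD, n = 6) in Het mice. Itgam did not exceed 0.095 TPM in any C57 mouse and was listed at 0 in 3 of the 6 Het mice.

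**Figure D2:**
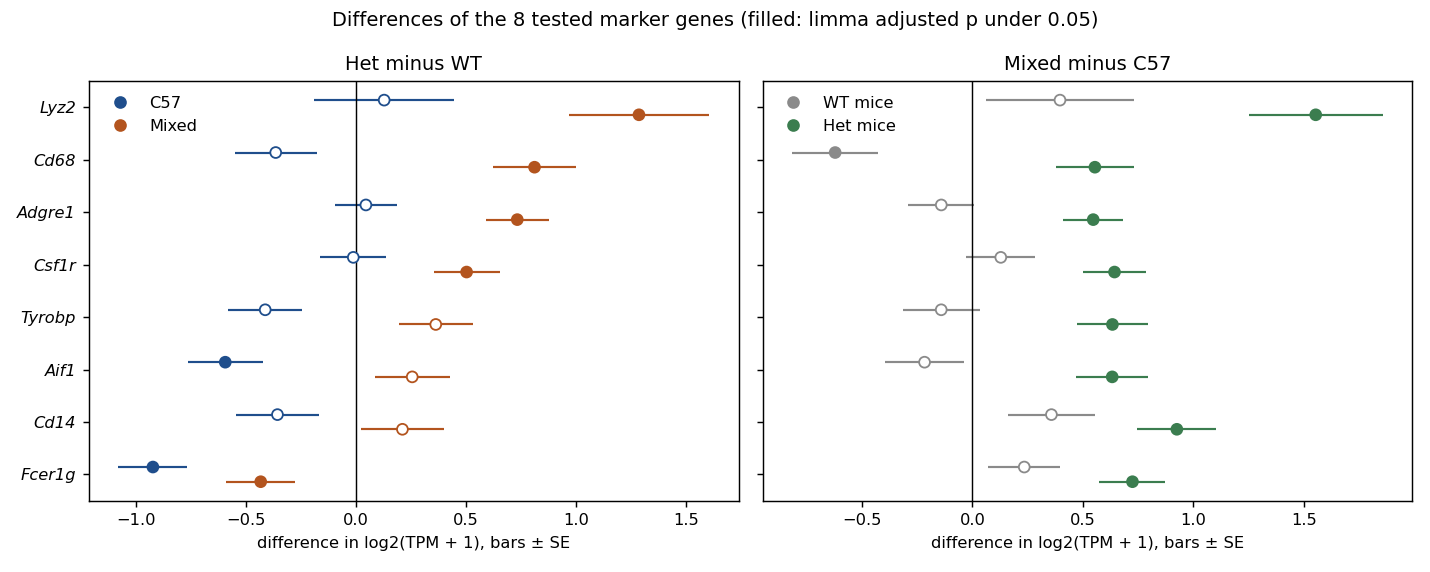
Log2(TPM + 1) difference of each of the 8 tested marker genes, with bars of ± 1 limma SE, for Het minus WT on each background (left) and Mixed minus C57 in each genotype (right). Filled points passed at an adjusted p under 0.05. Every gene lies to the right of 0 for Mixed against C57 in Het mice, from 0.55 for Cd68 and Adgre1 to 1.55 for Lyz2.

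Whether the genotype effect differed between backgrounds was tested as an interaction, the Mixed difference minus the C57 difference. All 8 tested markers had a positive value, with a median of 0.73 against 0.02 over all genes. Of the 8, 4 passed: Cd68 at 1.18 (SE 0.26, limma adjusted p = 0.0118), Aif1 at 0.85 (SE 0.24, adjusted p = 0.0353), Adgre1 at 0.69 (SE 0.20, adjusted p = 0.0414) and Tyrobp at 0.77 (SE 0.24, adjusted p = 0.0485). Over all genes 7.36% passed, 4.62% positive and 2.74% negative. The interaction is not independent of the 2 genotype comparisons, since it is computed from their mice. Lyz2 at 1.16 (adjusted p = 0.111), Csf1r at 0.51 (0.13), Cd14 at 0.57 (0.179) and Fcer1g at 0.49 (0.167) did not pass.

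Cd68 was the one marker whose interaction passed in all 22 fits that left out 1 mouse. Aif1 passed in 13 of them, Adgre1 in 10 and Tyrobp in 8. Without Mixed Het replicate 5, the adjusted p was 0.0635 for Aif1, 0.0692 for Adgre1 and 0.0782 for Tyrobp. Under median-of-ratios scaling Cd68 and Aif1 passed, with Adgre1 at an adjusted p of 0.0534 and Tyrobp at 0.072. With the most abundant genes left out of the total, Tyrobp missed the threshold (0.0537), and without a filter Cd68 alone passed. Median-of-ratios scaling also turned the split over all genes from 774 positive and 459 negative calls to 698 positive and 1085 negative.

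The backgrounds were also compared within a genotype. In Het mice all 8 tested markers were higher on Mixed than on C57, beside 20.5% of all genes called and 13.3% higher. This comparison shares its mice with the 2 genotype comparisons. Of the 8 markers, 7 had groups that did not overlap, beside 6.56% of all genes in the higher direction, and Cd14 was the exception. The median log2 difference was 0.64 for the markers and 0.02 for all genes. The all-gene split was 2234 higher and 1194 lower, and 1903 higher and 2010 lower after median-of-ratios scaling, under which all 8 markers were still called higher.

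Lyz2 had the largest difference between the Het groups, with a Mixed mean 3.21-fold the C57 mean and a log2 difference of 1.55 (SE 0.30, limma adjusted p = 0.00107). Cd14 differed by 0.93 (SE 0.18, adjusted p = 0.000942), with 5 of 6 Mixed Het mice above every C57 Het mouse. Fcer1g, which fell with genotype on C57, had a higher level in the Mixed Het group than in its C57 counterpart, by 0.72 (SE 0.15, adjusted p = 0.0017). Csf1r (0.64, SE 0.14), Tyrobp (0.63, SE 0.16), Aif1 (0.63, SE 0.16) and Adgre1 (0.55, SE 0.14) had adjusted p-values of 0.00306, 0.00723, 0.008 and 0.00657. Cd68 was the weakest call at 0.55 (SE 0.18, adjusted p = 0.03). It missed the threshold without a filter (0.0632) and when 1 of 7 mice was left out, which were C57 Het replicates 2, 3, 4 and 6 and Mixed Het replicates 1, 4 and 5 (0.0515 to 0.079). Ptprc also had Het groups that did not overlap, at 0.273, 0.428 and 0.568 TPM on C57 and 0.624, 0.873 and 1.05 on Mixed, a log2(TPM + 1) difference of 0.35 in the fit without a filter (limma adjusted p = 0.00338).

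In WT mice, 1 of the 8 tested markers was called between the backgrounds. Cd68 was lower on Mixed by a log2 difference of -0.62 (SE 0.19, limma adjusted p = 0.0417; exact permutation p = 0.0714), where 11.3% of all genes were called and 4.99% were lower. The C57 WT values of 10.2 to 29.3 TPM and the Mixed WT values of 7.64 to 16.6 TPM overlapped. The call was lost in the fit without a filter (0.0853), in the fit on WT mice alone (0.196) and when 1 of 7 mice was left out, which were C57 WT replicates 1, 3, 4 and 5 and Mixed WT replicates 2, 3 and 4 (0.0654 to 0.124). The other 7 differences lay between -0.22 for Aif1 and 0.40 for Lyz2. The median log2 difference was -0.01 for the 8 markers and 0.01 for all genes. With the most abundant genes left out of the total, the all-gene split went from 1056 higher and 836 lower to 1087 higher and 1337 lower.

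The 10 genes did not vary as one block among mice of the same group. After the group means were taken out, Pearson r over the 22 mice was above 0.5 for 9 of the 45 gene pairs and below 0 for 6. Adgre1, Csf1r and Ptprc moved most closely, with r of 0.88 for Adgre1 with Csf1r, 0.79 for Csf1r with Ptprc and 0.76 for Adgre1 with Ptprc. A looser set joined Tyrobp to Lyz2 (0.69), Cd14 (0.65) and Aif1 (0.62). Cd68 stood apart from all of them, with r between -0.10 and 0.29 to the other 9 genes, and Fcer1g lay between -0.02 and 0.29. These points share their libraries and the scaling to 1 total, so the values are descriptions.

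**Figure D3:**
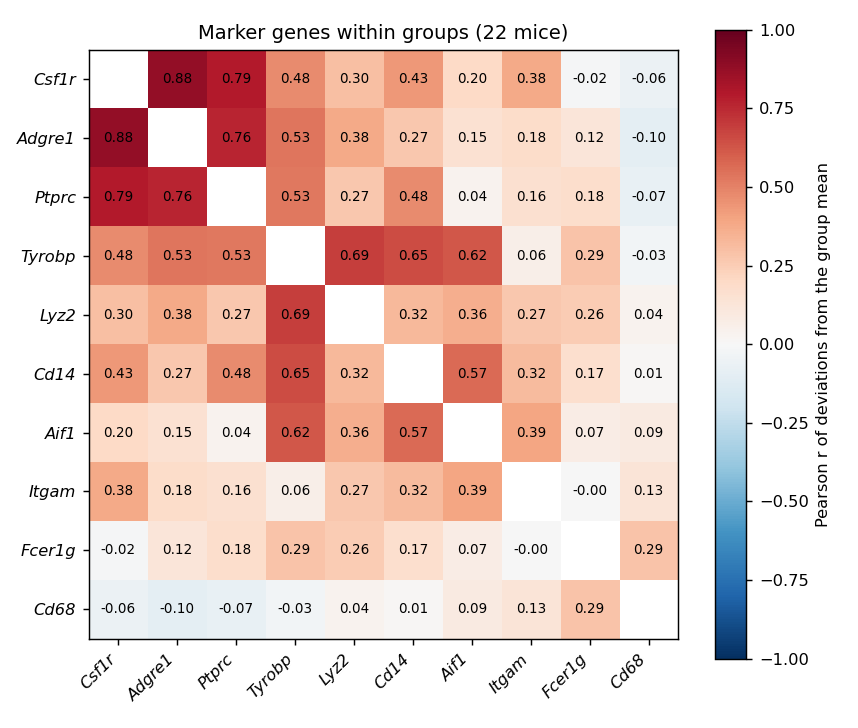
Pearson r between the 10 marker genes over 22 mice, from log2(TPM + 1) with each group's mean removed (color scale from negative to positive). Adgre1, Csf1r and Ptprc form the strongest block, and the rows of Cd68 and Fcer1g stay at or below 0.29.

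Ratios of TPM within a mouse do not depend on the library total. The ratio of Adgre1 to Csf1r had means on C57 of 0.588 ± 0.0377 (SD, n = 5) for WT and 0.621 ± 0.0363 (SD, n = 6) for Het mice, and on Mixed of 0.457 ± 0.0969 (SD, n = 5) and 0.604 ± 0.0571 (SD, n = 6). The ratio of the adaptors, Fcer1g to Tyrobp, had means on C57 of 1.57 ± 0.189 for WT and 1.08 ± 0.252 for Het mice, and on Mixed of 2.21 ± 0.984 and 1.16 ± 0.253. Its Het mean was lower than its WT mean on each background, and the ranges overlapped on both, at 1.30 to 1.82 against 0.833 to 1.55 on C57 and 1.47 to 3.79 against 0.937 to 1.54 on Mixed. A ratio shows unequal change and not which of its genes moved.

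Genes outside the set that varied most like the mean of the markers were ranked by r of their deviations over the 22 mice, among 13864 candidates. The 10 highest were Itgb2 (0.84), Tgfbi (0.83), Rtn4rl2 (0.83), C1qc (0.82), Irf5 (0.82), Coro1a (0.81), Vav1 (0.80), Laptm5 (0.80), Itgax (0.80) and H2-Aa (0.79). Itgb2 encodes the beta chain with which CD11b pairs, and Coro1a and Laptm5 are leukocyte genes. Of these 10, 7 stood in the marker or partner lists, and Tgfbi, Rtn4rl2 and Irf5 did not.

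Partner genes of the markers were counted by direction in each comparison, with the background shares already given. Of 16 myeloid receptors and kinases listed beside DAP12 and the Fc gamma chain, 6 were tested. Membership of the list does not show which adaptor, if any, a receptor uses. On Mixed 4 rose in Het mice and none fell, while on C57 none rose and 1, Lat2, fell. Clec7a, the beta-glucan receptor Dectin-1, went from 0.578 ± 0.183 TPM (SD, n = 5) in Mixed WT to 3.57 ± 2.38 (SD, n = 6) in Mixed Het, a log2 difference of 1.41 (limma adjusted p = 5.03e-05). The Fc receptors Fcgr3 (0.68, adjusted p = 0.0178) and Fcgr4 (0.64, adjusted p = 0.00798) and the phospholipase Plcg2 (0.25, adjusted p = 0.0325) made up the rest, of which Fcgr3 and Plcg2 missed the threshold after median-of-ratios scaling. The list's median in Mixed was 0.44, beside 0.10 for all genes. Clec7a also had a higher Het mean on C57, at 2.50 TPM (lowest 1.75) against 1.34 in WT (highest 1.62), but was not called there. In the interaction, 0 of the 6 genes were called.

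Among 9 ligands and lineage factors of the Csf1r axis, 7 were tested, and 5 rose and 1 fell in Mixed Het. Il34, a ligand of the receptor, went from 1.44 ± 0.452 to 4.13 ± 1.82 TPM, a log2 difference of 1.02 (limma adjusted p = 0.000224), while the other ligand, Csf1, differed by -0.15 (adjusted p = 0.371). On C57, Csf1 differed by -0.32 (adjusted p = 0.0637) and passed the threshold after median-of-ratios scaling (0.029) and with the most abundant genes left out of the total (0.0187). On Mixed, Cebpa differed by 0.51 (adjusted p = 0.00438) and Cebpb by -0.61 (adjusted p = 0.0109). Spi1, named here after its value was seen, differed by 0.41 on Mixed (adjusted p = 0.0219), a call that neither other scaling kept. Irf8, a partner of PU.1 also named after its value was seen, rose on Mixed by 0.48 (adjusted p = 0.00175) and fell by 0.32 on C57 (adjusted p = 0.0305). The interaction of Irf8 was 0.80 (adjusted p = 0.00636).

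Cd14 works with the Toll-like receptor 4 complex at the cell surface. Of 8 genes of that complex and its relatives, 6 were tested, and none rose and 1 fell on Mixed, while 2 rose and 1 fell on C57. Tlr2 was the gene that fell on both, by 0.84 on Mixed (limma adjusted p = 4.69e-06) and by 0.40 on C57 (adjusted p = 0.00843). Of 7 genes of the beta2 integrins, the family of CD11b, and of their partners, 5 were tested, and 4 rose on Mixed and none fell. Itgax, the CD11c chain, differed by 1.202 (adjusted p = 0.000139), Itgb2 by 0.75 (adjusted p = 0.00135), Tln1 by 0.44 (adjusted p = 0.0017) and Fermt3 by 0.32 (adjusted p = 0.0221). Fermt3 missed the threshold under both other scalings. On C57, 1 of these 5 rose, which was Tln1, and under each other scaling Fermt3 fell there as well.

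Phagosome and lysosome genes, the machinery in which Cd68 and Lyz2 products work, were 14 in number and 13 were tested. In Mixed Het 8 rose and none fell, but 4 rose under each other scaling. Lysosomal genes such as Ctsb are expressed by most cell types, endocrine cells included. Lgals3, a galectin made by macrophages, went from 0.884 ± 0.345 to 7.85 ± 5.63 TPM, a log2 difference of 2.06 (limma adjusted p = 2.8e-06). Ctsb (0.87, adjusted p = 5.41e-09), Ctss (0.81, adjusted p = 0.00141) and Cyba (0.58, adjusted p = 0.0344) followed, and Cyba missed the threshold under the other scalings. On C57, 3 of the 13 rose and 1 fell, and 2 fell under each other scaling.

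Of 19 further macrophage genes, 11 were tested, and 8 rose and 1 fell in Mixed Het, while none rose and 4 fell in C57 Het. Under each other scaling 7 rose and 1 fell on Mixed, and none rose and 6 fell on C57. The interaction was positive and past the threshold for 8 of the 11. These counts leave out macrophage genes below the filter, of which 3 are named after their values were seen. Cd163 on C57 had a WT mean of 0.046 TPM (highest 0.108) and a Het mean of 0.271 (lowest 0.176). The C57 means of Mrc1 were 0.238 (highest 0.349) for WT and 0.592 (lowest 0.484) for Het mice. Both genes were also higher in Het mice on Mixed, again without overlap, as held for 17.9% of the tested genes there. On C57 26.4% of the tested genes were called higher, and the share without overlap in that direction is not given here. Folr2 had a lower Het mean on C57, 0.287 against 0.335, with overlap. C1qa, a subunit of the first complement component made by tissue macrophages, averaged 178 ± 19.01 TPM (SD, n = 5) in WT and 103 ± 17.6 (SD, n = 6) in Het mice on C57, and 79.9 ± 9.95 and 117 ± 45.1 on Mixed. It differed by -0.80 on C57 (limma adjusted p = 0.000791), and its interaction was 1.28 (adjusted p = 0.00362). Also lower on C57 were Lyve1 (-0.77, adjusted p = 0.000991), C1qb (-0.48, adjusted p = 0.0192) and the fractalkine receptor Cx3cr1 (-0.36, adjusted p = 0.00765). Lyve1 was also the gene that fell on Mixed, with means of 4.53 TPM in WT and 2.45 in Het mice. On Mixed the largest were Itgax, C1qc (0.88, adjusted p = 5.81e-05) and the antigen presentation genes H2-Ab1 (0.84, adjusted p = 0.00192) and Cd74 (0.77, adjusted p = 0.00103). Of 10 pan-leukocyte genes, 7 were tested, and 3 rose on Mixed (Laptm5, Lcp1 and Coro1a, 0.54 to 0.56) and 1, Cd52, fell on C57. Coro1a missed the threshold on Mixed after median-of-ratios scaling. With the most abundant genes left out of the total, 3 of the 7 fell on C57, Coro1a and Laptm5 being added.

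Markers of other leukocytes were sparse beside these. No gene of the natural killer, neutrophil or mast cell lists passed the filter, and 1 of 10 T cell genes (Lck), 1 of 8 B cell genes (Cd79a) and 2 of 7 monocyte genes (Fn1 and Plac8) did. The 2 monocyte genes rose on Mixed, 1 of them under each other scaling, and 1 rose on C57. Of 6 dendritic cell genes, 1 was tested and was called by genotype on neither background, though it fell on C57 under each other scaling. The mean dendritic sum was 1.92 TPM in Mixed WT and 2.84 in Mixed Het mice. The summed neutrophil list stayed at or below 1.17 TPM in all 22 mice. The T cell marker Cd3e averaged at most 0.043 TPM in a group and the B cell marker Ms4a1 at most 0.019. The 10 markers summed to a median of 60.7 TPM in WT and 46.6 in Het mice on C57, and of 65.6 and 84.4 on Mixed. The Mixed WT range of 47.1 to 68.1 and Mixed Het range of 68.5 to 129 did not overlap. The C57 WT range of 54.9 to 78.8 and C57 Het range of 37.5 to 53.3 did not overlap either, with the Het mice lower. These sums weigh the abundant genes most, so they do not show that the markers moved together. Cd68 and Fcer1g had the highest means in C57 WT, and Lyz2 and Cd68 in Mixed Het.

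Fibroblast and stellate cell markers moved with the Mixed Het result. Of 7 such genes, 6 were tested, and 5 rose in Mixed Het against WT, while none was called on C57 (1 fell there under each other scaling). Their summed level lay between 31.4 and 62.8 TPM in Mixed WT and between 58.0 and 367 in Mixed Het, and between 34.4 and 89.9 in C57 WT and 39.8 and 64.9 in C57 Het. The part of these cells in the marker result was not tested. Ductal markers moved with it too, in that 5 of 6 tested rose and 1 fell (Krt8) in Mixed Het, with a median log2 difference of 0.79, and 3 rose under each other scaling. On C57, 2 of the 6 ductal genes rose and none fell (1, Krt7, with the most abundant genes left out of the total). Their summed level, on average mostly Krt8, lay between 442 and 1377 TPM in Mixed WT and between 562 and 979 in Mixed Het. Of 7 tested acinar genes, 7 were called higher in C57 Het and 1 in Mixed Het. All 7 were positive on Mixed too, with a median log2 difference of 0.91 beside 1.23 on C57, and 0 passed the interaction. The part of ductal and acinar cells in the marker results was not tested. Endothelial genes moved with the C57 result, in that 3 of 6 fell in C57 Het (Egfl7, Tie1 and Kdr) and none was called on Mixed. Their sum lay between 288 and 746 TPM in C57 WT, with the highest in replicate 5, and between 280 and 343 in C57 Het. Their part in the lower Fcer1g and Aif1 was not tested.

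One mouse had the highest value for most of the markers. Mixed Het replicate 5 was the highest of its group for 8 of the 10 genes, and it also had the highest fibroblast sum (367 TPM) and the highest sum of the further macrophage genes (693 TPM). Without it, 5 of the 8 markers were still called between Mixed Het and WT, 4 of them higher. Without it, 7 of the 8 were called between the Het groups, and 1 in the interaction.

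**Figure D4:**
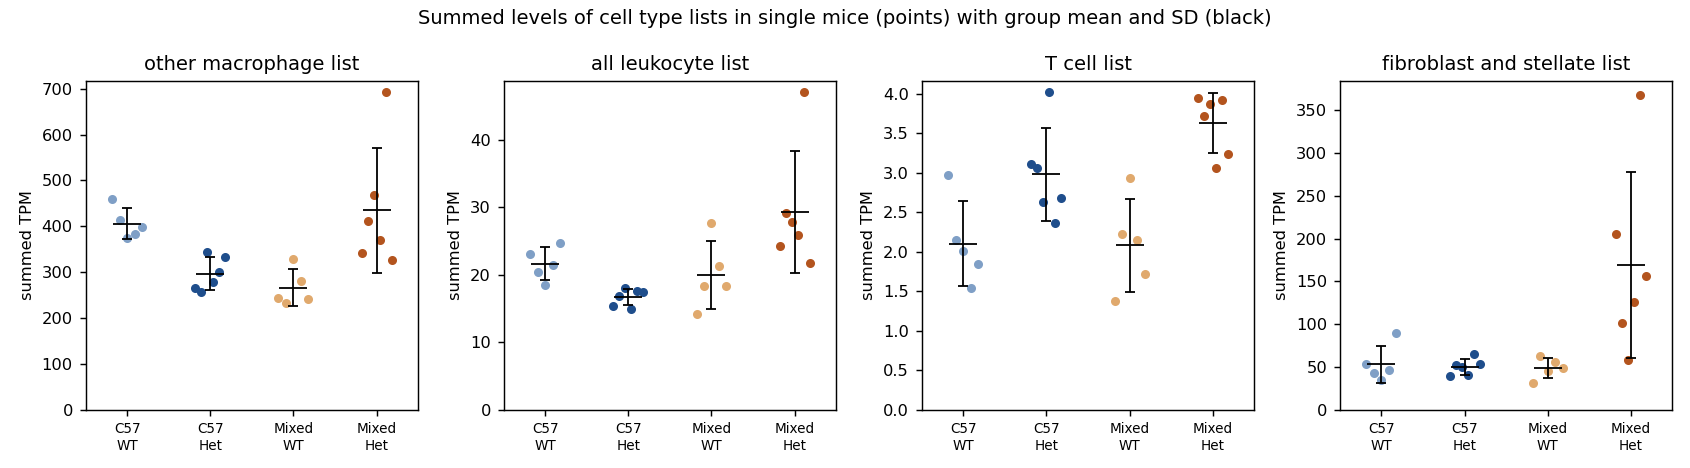
Summed TPM of the further macrophage, pan-leukocyte, T cell and fibroblast lists in every mouse, by group (points are mice, black bars the group mean and SD; each panel has its own vertical axis). One Mixed Het mouse reaches 693 TPM in the macrophage list and 367 in the fibroblast list, and the T cell list stays at or below 4.03 TPM.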

How the data were processed

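Polyadenylated RNA of islets from 22 male mice, each sample 1 mouse, was sequenced, per the labels' protocols. The authors deposited 1 table of TPM with 57010 genes and 22 value columns, whose headers were matched to sample titles, and 0 value columns were left unused. STAR 2.7.10b, MultiQC 1.7 and the genome build mm39 are named per the submitters' processing notes, and the counting tool and annotation are not given in the sources used here. TPM keeps no depth, so no interval or floor from counts was computed, and the number of mice limits the precision.

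Values were taken as log2(TPM + 1), which understates changes of low genes. The 16756 genes at 1 TPM or more in 5 or more samples were fitted by limma 3.58.1 in R 4.3.3 (lmFit, eBayes with trend) with 4 group means over all 22 samples, and p-values were adjusted over all genes by Benjamini-Hochberg with a threshold of 0.05. Single genes were also compared by two-sided, unadjusted exact permutation tests that enumerate all splits of the mice, whose smallest p is 0.00216 for 5 against 6 and 6 against 6 and 0.00794 for 5 against 5. A fold or percent is a ratio of mean TPM. No 2 libraries held identical values (231 pairs, Pearson r from 0.904 to 0.990). The scripts were tested on simulated data.

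The 10 markers and all lists were chosen with earlier results of these data known. Of each list, at most 4 genes were named, those past the threshold with the largest absolute difference in the contrast described. Others are said to be named after their values were seen, and a few genes of the lists are left unnamed. The 10 most similar genes were ranked by Pearson r with the markers' mean deviation, leaving out provisional symbols. Alternatives were a pseudocount of 0.1, no filter (37378 genes), median-of-ratios scaling, a total without the 13 genes above 1% of any sample, fits on the compared groups alone, and leaving out each mouse. Promoter windows and gene starts are from RefSeq on GRCm38.p6, another build than that of the files, and were matched by symbol.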

Additional observations from a re-analysis of the deposited data

Results flagged for a closer look

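The genotype difference itself differed between the backgrounds in 4 of the 8 tested markers, beside 7.36% of all genes called. That count was 1 without a filter, 2 after median-of-ratios scaling, 3 with the most abundant genes left out of the total, and 1 to 4 when single mice were left out. The interaction log2 difference was 1.18 for Cd68, 0.69 for Adgre1, 0.77 for Tyrobp and 0.85 for Aif1, each with a limma adjusted p under 0.05. Within a background, Cd68 and Adgre1 were called on Mixed, Aif1 on C57 and Tyrobp on neither.

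In groups of 5 or 6 mice, the gap between the highest or lowest mouse and its neighbour was set against the range of the group, a rule that chance meets in about 1 in 20 groups. Of 40 groups, 2 held a mouse apart. C57 Het replicate 1 had 16.5 TPM of Cd68, with a gap of 0.632 of the range. Mixed WT replicate 3 had 0.771 TPM of Ptprc, with a gap of 0.910 of the range.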

How the results depend on the processing

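No paired analysis was possible because the labels give library numbers unique to a sample, and replicate numbers given in accession order pair nothing. Of 192 differences of single markers recomputed with all mice, 174 kept their direction and their side of the threshold. On C57, 4 markers were called under each of the other scalings instead of 2, and Adgre1 turned from 0.04 to -0.017 with median-of-ratios scaling and to -0.031 with the total without the most abundant genes. For the interaction, 714 genes were called without a filter instead of 1233, and 1 marker was called without a filter and 2 with median-of-ratios scaling instead of 4. Between backgrounds in WT mice, 0 markers were called without a filter and 0 in the fit on WT mice alone instead of 1, where that fit called 831 genes instead of 1892, and 0 exact permutation tests passed with the total without the most abundant genes instead of 1. The cause was not tested.

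Leaving out each mouse in turn, the C57 comparison called 5131 to 6814 genes and 2 to 3 markers, with 3 to 5 exact permutation tests under 0.05. Adgre1 ranged from -0.021 to 0.092 there and Csf1r from -0.10 to 0.040, both turning sign. The Mixed comparison called 6247 to 7325 genes and 4 to 6 markers (4 to 6 exact tests), the interaction 771 to 1775 genes and 1 to 4 markers, the Het comparison of backgrounds 2556 to 3583 genes and 7 to 8 markers (10 exact tests in every fit), and the WT comparison 1409 to 2376 genes and 0 to 1 marker (0 to 2 exact tests). Csf1r turned to 0.031, 0.040 and 0.023 without C57 WT replicate 1, 2 or 4 and to 0.0069, 0.0094 and 0.010 without C57 Het replicate 1, 2 or 4, and Adgre1 to -0.021 without C57 WT replicate 5. Depth cannot be read from TPM, and Ptprc and Itgam are near the lower end of what these values resolve.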

Other observations

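Single genes of sparse lymphocyte lists differed by genotype where their list mates were near 0, and they were chosen after their values were seen. Cd79a, a chain of the B cell receptor complex, averaged 11.2 ± 1.90 TPM (SD, n = 5) in WT and 4.27 ± 0.951 (SD, n = 6) in Het mice on C57, and 7.91 ± 2.71 and 2.21 ± 0.639 on Mixed. Its log2 difference was -1.22 on C57 (limma adjusted p = 4.65e-05) and -1.43 on Mixed (adjusted p = 3.18e-06). Its partner chain Cd79b averaged at most 0.281 TPM in a group. Lck, a kinase of T cells, rose by 0.48 on C57 (adjusted p = 0.00894) and by 0.71 on Mixed (adjusted p = 0.000291).

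Lbp, whose product carries lipopolysaccharide to Cd14, differed between the backgrounds, though not in every mouse. Its C57 means were 0.455 ± 0.192 TPM (SD, n = 5) for WT and 0.553 ± 0.0638 (SD, n = 6) for Het mice, against Mixed means of 40.7 ± 19.2 and 27.1 ± 25.7. The Mixed Het range of Lbp ran from 0.546 to 63.95 TPM, so its lowest mouse lay inside the C57 WT range of 0.180 to 0.713. The log2 difference between Mixed and C57 was 4.71 in WT mice (limma adjusted p = 0.000325) and 3.09 in Het mice (adjusted p = 0.00318).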
